A study of Mus musculus with 48 samples.

Results

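Livers of female mice labelled as lacking Pparg in hepatocytes were compared after a diet rich in cholesterol, fat and fructose (HFCF) and after a low-fat (LF) diet. The 8 libraries, 4 on each diet, are taken from a whole-liver RNA-seq series of 48 libraries in 10 groups, and were chosen by their titles. The pair has no table of its own among the files used here, so raw read counts from 2 tables were joined by gene, giving 25551 genes. LF mice ate that diet for 34 weeks, and HFCF mice ate a high-fat (HF) diet for 18 weeks and then the HFCF diet for 16 weeks. Both groups carried floxed Pparg and received AAV8-TBG-Cre after 16 weeks on diet. This adeno-associated virus expresses Cre recombinase from the TBG promoter, which is active in hepatocytes, so deletion in other liver cells is not part of the model. A further 3 female groups of 4 serve as comparators: AAV8-TBG-null controls on LF, AAV8-TBG-null controls on HFCF, and AAV8-TBG-Cre mice kept on HF for 34 weeks. All mice in them carried floxed Pparg too. The labels give no starting age beyond adult. Each library carries its own mouse number, so p-values measure the spread between single livers.

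Diets rich in fat, cholesterol and fructose are used to drive fatty liver in rodents towards steatohepatitis, in which fat-laden hepatocytes are accompanied by inflammation, scar matrix and epithelial repair. Monocyte-derived macrophages that take up lipid, stellate cells that make collagen, and biliary or progenitor-like epithelium are the cell populations usually followed. PPARG is a fatty-acid-responsive nuclear receptor whose level rises in fatty hepatocytes, where it drives genes of lipid droplets and lipid uptake. Hepatocytes themselves secrete plasma proteins, clear ammonia through the urea cycle and oxidise drugs and steroids.

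Levels are in CPM (read counts divided by library size), scaled with edgeR's TMM factors over the 24 female libraries, and each set of 4 CPM values runs from the first to the last replicate. A gene was called when edgeR's quasi-likelihood F test gave a Benjamini-Hochberg adjusted p under 0.05 over all genes tested. Log2 fold changes are HFCF minus LF unless another pair is named, with their standard error (SE). Depth ran from 15338182 to 18681795 reads on genes in the 8 libraries. HFCF labelled-knockout replicate 1 stood apart. It had reads on 19160 genes, against 21022 to 21353 in the other HFCF libraries and 19982 to 20310 in the LF libraries. Its summed FPKM was 539800, against 324952 to 352190 and 415312 to 432951, so both measures also differed between the diets. Its second principal component was 68.32 against -14.82 to -9.92 in the other HFCF libraries. On the first, which held 49.1% of the variance, it lay between the diets at -4.65. The other HFCF libraries were at -53.43 to -42.44 there and the LF libraries at 16 to 61.31. Its short genes were higher relative to long ones, with a median log2 deviation difference of 0.673 against -0.313 to 0.223 in the other libraries of the comparison. Its part in each result was measured by leaving it out.

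Pparg was read first because it checks the labels. Pparg (ENSMUSG00000000440, chr6:115360951-115490399) stood at 38.3, 58.7, 44.3 and 40 CPM on HFCF against 22.5, 14.1, 13 and 10.4 CPM on LF. All HFCF values lay above the LF values (log2 fold change 1.60, SE 0.23, edgeR adjusted p 0.00276). In the controls it was 23.4, 23.4, 21.6 and 25 CPM on HFCF against 7.75, 7.57, 11.1 and 14.3 CPM on LF, so the labelled knockouts were not lower than controls on either diet. The log2 difference of labelled knockouts from controls was 0.938 on HFCF (exact permutation p 0.0286, the smallest the design allows, adjusted p 0.0571) and 0.55 on LF (exact permutation p 0.2). A count over the whole gene, in whole liver, does not show whether the floxed segment was removed. The groups are therefore called labelled knockouts throughout.

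The diets separated 1754 of 14614 tested genes (12% called), with 1207 higher (8.26%) and 547 lower (3.74%) on HFCF. The median log2 fold change of all tested genes was 0.014, and 4016 genes had an unadjusted p below 0.05. Among all tested genes, every HFCF library exceeded every LF library in 10.6% and fell below every LF library in 6.5%. Without HFCF replicate 1 the count rose to 3587 of 15040 tested, 2031 higher and 1556 lower, and 1727 of the 1754 calls were shared, all in the same direction. The count fell to 681 without HFCF replicate 2, 709 without HFCF replicate 4, 939 without HFCF replicate 3, 889 without LF replicate 2 and 1045 without LF replicate 3. Calls given below as made in all 8 leave-one-out fits are those that passed with any single library removed. List counts below are to be read beside the 8.26% called higher and 3.74% called lower over all tested genes. Scaling by DESeq2 size factors in place of TMM gave 1124 higher and 611 lower calls.

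**Figure D1:**
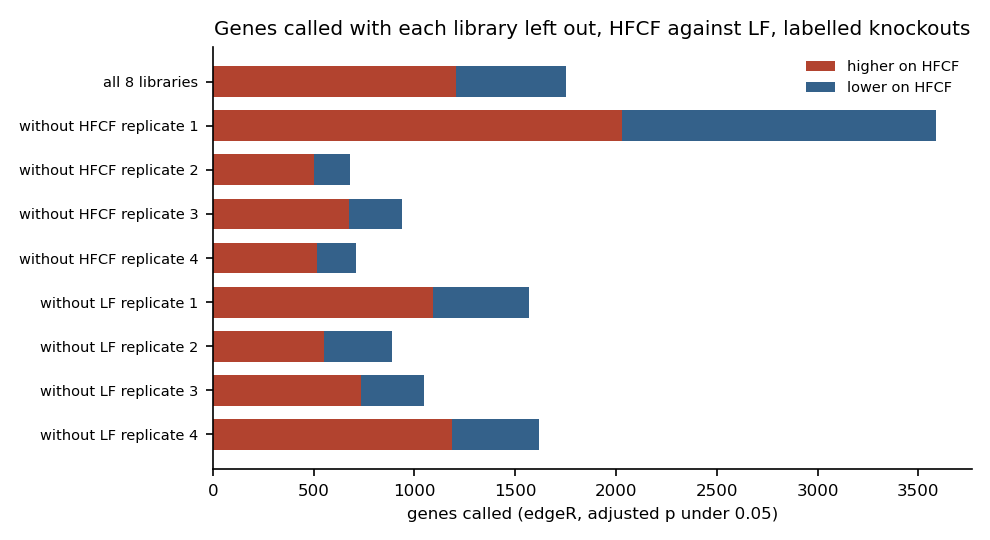
Genes called between HFCF and LF labelled knockouts with all 8 libraries and with each library left out, as stacked bars of calls higher (red) and lower (blue) on HFCF. The bar without HFCF replicate 1 reaches 3587, and the one without HFCF replicate 2 is shortest at 681.

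The 10 genes that rose most, among called genes of at least 1 CPM on average whose groups did not overlap, were Sprr1a, Ubd, Ephb2, Gpnmb, Timp1, Gsta1, Abcc12, Ckap2, Mmp12 and Fam83a. Lack of overlap was a condition of this choice, and of the falling genes below, so it is no separate result for them. Sprr1a, a cornified-envelope protein of squamous epithelium that is also made after tissue injury, was at 3.41, 12.1, 3.97 and 13 CPM on HFCF against 0.116, 0, 0 and 0.0596 CPM on LF. The LF libraries held 3 reads in all and the HFCF libraries 629, a ratio of 188 with an exact 95% counting interval of 64.1 to 915. Such intervals pool the 4 libraries of a group and cover counting error only. Ubd, a ubiquitin-like modifier induced by inflammatory cytokines, was at 7.46, 13.5, 9.7 and 12.8 CPM on HFCF against 0.404, 0.129, 0.0587 and 0.238 CPM on LF (log2 fold change 5.66, SE 0.39, edgeR adjusted p 8.82e-05). Both genes were near absent on LF and present in every HFCF liver.

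Gpnmb (ENSMUSG00000029816, chr6:49036546-49070929), a transmembrane glycoprotein of lipid-laden macrophages, was at 20.3, 80.1, 47.9 and 74.5 CPM on HFCF against 2.54, 1.03, 0.646 and 1.19 CPM on LF (log2 fold change 5.36, SE 0.49, edgeR adjusted p 0.000464). HFCF replicate 1 was the lowest of its group and still well above every LF library. Timp1, which inhibits matrix metalloproteinases, rose by a log2 fold change of 5.31 (SE 0.54); its locus lies within that of Syn1, and the libraries do not keep strand. Mmp12, the macrophage elastase, was at 17.8, 53, 32.5 and 42.5 CPM on HFCF against 5.89, 0.129, 0.587 and 0.894 CPM on LF (log2 fold change 4.27, SE 0.69, edgeR adjusted p 0.00399). Its LF replicate 1 lay far above the other LF libraries but below every HFCF library. Without it the log2 fold change was 6.05.

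Ephb2, an ephrin receptor tyrosine kinase, rose by 5.48 (SE 0.71) on the log2 scale, Gsta1, a glutathione transferase, by 5.14 (SE 0.60), and Ckap2, a mitotic spindle protein, by 4.34 (SE 0.58). Abcc12, an ABC transporter, rose by 4.87 (SE 0.70) and Fam83a, a signalling scaffold protein, by 4.16 (SE 0.45). All 10 were called in all 8 leave-one-out fits, but some sizes moved by over 1.5 times. Without LF replicate 1 the log2 fold change was 6.21 for Timp1 and 6.39 for Gsta1. It was 5.66 for Abcc12 without LF replicate 3, and 4.71 for Ephb2 without HFCF replicate 4. Several of them passed the filter on low counts through the HFCF libraries alone, so their passing is no separate evidence.

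Among those that fell most by the same rule were Sult3a1, Cyp3a16, Lepr, Cux2, Plekhd1, A1bg, Cxcl13, Slc13a2 and Cyp3a41b. Sult3a1, a liver sulfotransferase higher in female than male mice, was at 5.12, 0.59, 2.25 and 0.411 CPM on HFCF against 26.6, 60.4, 101 and 57.1 CPM on LF (log2 fold change -4.97, SE 0.62, edgeR adjusted p 0.0017). HFCF replicate 1 was the highest of its group and still below every LF library, and without it the log2 fold change was -5.82.

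Cyp3a16, a cytochrome P450 of the female liver, was at 43.1, 1.67, 3.92 and 0.359 CPM on HFCF against 60.9, 295, 84.9 and 346 CPM on LF (log2 fold change -4.07, SE 1.08, edgeR adjusted p 0.0313), and Cyp3a41b, a near copy of other Cyp3a genes, at 19.7, 2.56, 3.53 and 0.77 CPM on HFCF against 23.7, 64.1, 24.3 and 44.5 CPM on LF (log2 fold change -2.63, SE 0.70, edgeR adjusted p 0.0319). HFCF replicate 1 lay close to the LF range in both. Without it the values were -6.65 and -4.11, and both calls were lost without HFCF replicate 2, 3 or 4 or LF replicate 2 or 4. Reads of such gene copies may be shared between them, so these 2 are uncertain.

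Lepr (chr4:101717404-101815352), the leptin receptor, whose liver transcripts include a secreted form, was at 15.1, 8.02, 13.1 and 10.2 CPM on HFCF against 30.8, 112, 269 and 130.3 CPM on LF (log2 fold change -3.56, SE 0.51, edgeR adjusted p 0.00276). LF replicate 1 was the lowest of the LF livers, and no HFCF library reached it. Lepr was also low after HF alone, at 9.01, 6, 3.7 and 13.6 CPM (HF against LF -4.09, adjusted p 0.0404; HFCF against HF 0.51, adjusted p 0.362). The HF call, like every call of that comparison, was lost without LF replicate 2, LF replicate 4 or HF replicate 1. Cux2, a female-biased liver transcription factor, was at 26.1, 4.23, 13.6 and 5.65 CPM on HFCF against 56.8, 146, 144 and 216 CPM on LF (log2 fold change -3.54, SE 0.54, edgeR adjusted p 0.00319). A1bg, a secreted plasma protein of the female mouse liver, fell with a log2 fold change of -3.42 (SE 0.57). Cxcl13, a B cell chemokine, had -2.97 (SE 0.63), Slc13a2, a dicarboxylate transporter, -2.64 (SE 0.53), and Plekhd1 -3.44 (SE 0.71). The loci of A1bg, Slc13a2, Cux2 and Sult3a1 overlap other annotated transcripts. Without HFCF replicate 1 the value was -4.20 for Cux2 and -4.14 for A1bg. It was -2.08 for Cxcl13 without LF replicate 2 and -2.69 for Plekhd1 without LF replicate 4. Apart from the 2 Cyp3a genes, these were called in all 8 leave-one-out fits.

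**Figure D2:**
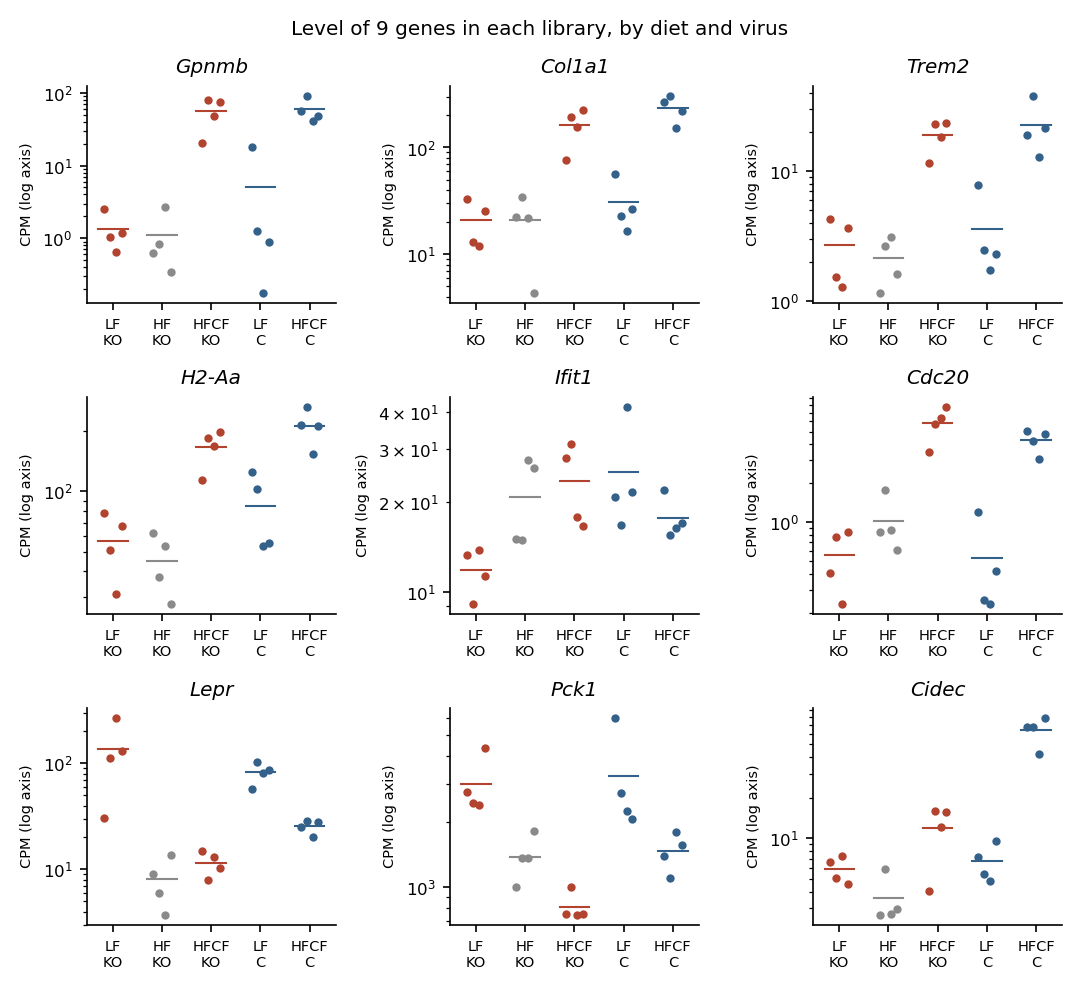
CPM on a log axis of 9 genes in each library of LF, HF and HFCF labelled knockouts (KO) and LF and HFCF controls (C), with group means as lines. Gpnmb runs from 20.3 to 80.1 in HFCF KO against 0.646 to 2.54 in LF KO, and Cidec in HFCF C lies above all HFCF KO libraries.

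Of 26 tested collagens and other matrix proteins, 21 were called higher and 0 lower, where 8.26% of all tested genes were called higher (median log2 fold change 1.63, against 0.014 over all genes). The summed level of the list overlapped between the diets, at 4106 to 5518 CPM on HFCF and 3960 to 5435 CPM on LF. The called genes included fibrillar collagens, basement-membrane collagens and the lysyl oxidases that cross-link them. Col1a1 (ENSMUSG00000001506, chr11:94936224-94953042), the main chain of type I collagen, was at 76.4, 192, 157 and 224 CPM on HFCF against 32.6, 13.1, 11.9 and 25.5 CPM on LF (log2 fold change 2.98, SE 0.38, edgeR adjusted p 0.0017). Col3a1, the fibrillar collagen of early scar, was at 180, 335, 286 and 355 CPM on HFCF against 59.7, 39, 28.1 and 56.1 CPM on LF (log2 fold change 2.67, SE 0.27, edgeR adjusted p 0.000938). For both, the lowest HFCF liver, replicate 1, still held more than any LF liver.

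Lox, a lysyl oxidase, rose by 3.71 (SE 0.55) on the log2 scale, Col1a2 by 2.47 (SE 0.30), Col5a2 by 2.16 (SE 0.28) and Loxl1 by 2.06 (SE 0.30). These 6 were called in every leave-one-out fit, although Col5a2 was not called with all 6 female groups in 1 fit (adjusted p 0.0813). The list count ran from 17 without HFCF replicate 2 to 24 without HFCF replicate 1. In controls on the same diets, 23 of 26 were called higher and 1 lower (median 1.45), where 18.4% of all tested genes were called higher and 16.8% lower.

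Among 10 tested matrix metalloproteinases and inhibitors, 5 were called higher and 0 lower: Timp1, Mmp12, Mmp13, Mmp2 and Timp2. Mmp13, the rodent interstitial collagenase, was at 2.27, 4.72, 3.48 and 3.59 CPM on HFCF against 0.52, 0.322, 0.352 and 0.477 CPM on LF (log2 fold change 3.06, SE 0.34, edgeR adjusted p 0.00138), with no overlap between the diets. Mmp2, a gelatinase, rose by 1.93 (SE 0.26) and Timp2 by 1.16 (SE 0.19). Mmp3, Mmp8 and Mmp10 had too few reads to be tested.

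Of 17 tested markers of stellate cells and myofibroblasts, the cells that make scar matrix, 5 were called higher and 0 lower (median 0.69), and their summed level was 842.7 to 934.1 CPM on HFCF against 438.4 to 785.4 CPM on LF. In bulk RNA, fewer or more cells of a type and less or more RNA per cell cannot be told apart. Pdgfrb, the PDGF receptor of stellate cells, was at 31, 44.8, 44.3 and 52.1 CPM on HFCF against 21.1, 16, 9.33 and 19.5 CPM on LF (log2 fold change 1.39, SE 0.23, edgeR adjusted p 0.00488), with the HFCF livers all above the LF livers.

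Tgfbi, a matrix protein induced by TGF-beta, rose by 0.95 (SE 0.16), Tgfb1 by 0.82 (SE 0.18), Ngfr by 0.94 (SE 0.24) and Lrat, which esterifies retinol for storage, by 0.73 (SE 0.21). Only Pdgfrb and Tgfbi held in all 8 leave-one-out fits: Lrat was called only without HFCF replicate 1 or LF replicate 1, Ngfr was lost without HFCF replicate 2 or LF replicate 2, 3 or 4, and Tgfb1 without either replicate 2. Acta2, the smooth-muscle actin of myofibroblasts, was at 5.33, 4.77, 3.13 and 4.88 CPM on HFCF against 1.33, 5.6, 0.704 and 3.64 CPM on LF, and the groups overlapped (log2 fold change 0.69, SE 0.48, edgeR adjusted p 0.395). Desmin was likewise not called, at 0.28 (SE 0.23, adjusted p 0.475).

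Of 16 tested endothelial markers, 2 were called higher and 0 lower (median 0.14). Over all tested genes 8.26% were called higher, so this count does not mark out the list. Cd34, which marks capillary-type endothelium and other progenitor cells, was at 3.91, 5.07, 7.15 and 7.7 CPM on HFCF against 2.66, 1.48, 1.12 and 2.8 CPM on LF (log2 fold change 1.57, SE 0.33, edgeR adjusted p 0.0118), above LF in every HFCF liver. Plvap, a diaphragm protein of fenestrated vessels, changed by 0.54 (SE 0.16) and was called in 1 of 8 leave-one-out fits, without LF replicate 1. Lyve1, of sinusoidal and lymphatic endothelium, overlapped between diets at 12.8, 22.9, 23.3 and 15.4 CPM on HFCF against 15.9, 6.62, 4.34 and 32.7 CPM on LF. The list sum was 794.5 to 965.9 CPM on HFCF and 502.8 to 1049 CPM on LF.

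Of 14 tested markers of lipid-associated macrophages, the cells that gather around dying fatty hepatocytes and fibrous tissue, 12 were called higher and 1 lower (median 1.74). Their summed level was 847.9 to 1184 CPM on HFCF and 360.5 to 773.1 CPM on LF. Trem2, the lipid-sensing receptor that defines them, was at 11.6, 22.8, 18.4 and 23.3 CPM on HFCF against 4.28, 1.54, 1.29 and 3.64 CPM on LF (log2 fold change 2.83, SE 0.36, edgeR adjusted p 0.0017). Cd63, a tetraspanin of late endosomes, was at 34, 54.4, 54.6 and 68.5 CPM on HFCF against 11.3, 8.3, 5.93 and 12.6 CPM on LF (log2 fold change 2.48, SE 0.26, edgeR adjusted p 0.000938). Neither gene overlapped between the diets.

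Itgax rose by 2.16 (SE 0.34) on the log2 scale, Spp1, which encodes osteopontin and is also made by biliary cells, by 2.05 (SE 0.36), and Lgals3 by 1.75 (SE 0.28). Those 5 and Gpnmb were called in all 8 leave-one-out fits. Fabp5, a fatty acid binding protein that hepatocytes also make, was the member that fell, at 41.6, 34.2, 64.3 and 49.1 CPM on HFCF against 129.7, 85.6, 47.8 and 286 CPM on LF (log2 fold change -1.53, SE 0.43, edgeR adjusted p 0.038). The groups overlapped and the value was -0.89 without LF replicate 4. The call held in 3 of 8 leave-one-out fits, those without HFCF replicate 1, LF replicate 2 or LF replicate 3.

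Of 10 tested markers of resident Kupffer cells, the self-renewing macrophages of the sinusoids, 3 were called higher and 1 lower (median 0.35). Clec4f, which defines these cells in mice, was at 236, 178, 169.8 and 142 CPM on HFCF against 187, 112, 128 and 201 CPM on LF, and the diets overlapped (log2 fold change 0.21, SE 0.20, edgeR adjusted p 0.555). Timd4, a phosphatidylserine receptor of long-lived Kupffer cells, was at 4.48, 6.2, 1.47 and 2.31 CPM on HFCF against 7.57, 8.23, 7.87 and 11 CPM on LF (log2 fold change -1.27, SE 0.36, edgeR adjusted p 0.04). Every HFCF value lay below the LF values, but the call held only without HFCF replicate 1 or 2. Adgre1, which encodes F4/80 and is also expressed by recruited macrophages, rose by 1.20 (SE 0.21), and Cd5l by 1.15 (SE 0.21). Folr2 rose by 0.73 (SE 0.21) and was called in 1 leave-one-out fit, without LF replicate 4. The list sum was 700 to 874.7 CPM on HFCF and 498 to 746.5 CPM on LF. Over all tested genes, 8.26% were called higher and 3.74% lower.

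Of 21 tested genes of monocytes, neutrophils and inflammatory signalling, 10 were called higher and 0 lower (median 1.14). Ccr2, the receptor that draws monocytes into tissue, was at 7.25, 18.9, 19.8 and 21 CPM on HFCF against 5.26, 2.25, 2.64 and 5.24 CPM on LF (log2 fold change 2.13, SE 0.36, edgeR adjusted p 0.00488). Its ligand gene Ccl2 was at 3.55, 5.51, 3.58 and 4.67 CPM on HFCF against 0.635, 0.643, 1.23 and 2.03 CPM on LF (log2 fold change 1.93, SE 0.37, edgeR adjusted p 0.00807). Both ligand and receptor were higher in every HFCF liver than in any LF liver.

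Cx3cr1, the fractalkine receptor of monocytes, rose by 2.64 (SE 0.40) on the log2 scale, and its locus overlaps several other genes. Lyz2, lysozyme of myeloid cells, rose by 1.50 (SE 0.17), Cd14 by 1.39 (SE 0.28) and Ccl3, a macrophage chemokine, by 1.94 (SE 0.41), the last lost without HFCF replicate 2. Tnf was at 0.924, 1.82, 1.08 and 1.03 CPM on HFCF against 0.751, 0.193, 0 and 0.596 CPM on LF and was not called (log2 fold change 1.65, SE 0.63, edgeR adjusted p 0.111). The list count ran from 6 without HFCF replicate 2 to 11 without HFCF replicate 1, and the summed level was 337 to 496.3 CPM on HFCF against 131.8 to 219.5 CPM on LF.

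No lymphocyte marker was called: 0 of 12 tested T, NK and B cell genes by edgeR, although 1 had an unadjusted p below 0.05 (median -0.10). Their summed level was 15.63 to 24.69 CPM on HFCF and 20.96 to 36.89 CPM on LF. Cd3e, part of the T cell receptor complex, was at 1.07, 0.787, 0.979 and 1.03 CPM on HFCF against 1.16, 1.35, 0.411 and 2.8 CPM on LF, and the groups overlapped.

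MHC class II genes present peptides to CD4 T cells from macrophages, dendritic cells and B cells. Of 8 tested, 7 were called higher and 0 lower (median 1.45), and their summed level was 778.3 to 1163 CPM on HFCF against 203.5 to 475.7 CPM on LF. H2-Aa (chr17:34282744-34287827), the alpha chain of I-A, was at 115, 184, 168 and 198 CPM on HFCF against 77.9, 50.9, 30.8 and 66.9 CPM on LF (log2 fold change 1.56, SE 0.26, edgeR adjusted p 0.00474). H2-Eb1 (chr17:34305877-34316199), the beta chain of I-E, was at 132, 195, 159 and 185 CPM on HFCF against 75.4, 50.7, 30.3 and 66.9 CPM on LF (log2 fold change 1.59, SE 0.24, edgeR adjusted p 0.0032). No LF liver reached the lowest HFCF liver for either chain.

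H2-DMb1, a peptide-exchange chaperone chain, rose by 1.51 (SE 0.23), Cd74, the invariant chain, by 1.49 (SE 0.25) and H2-Ab1 by 1.41 (SE 0.23). Ciita, the coactivator that switches class II genes on, was at 5.4, 17.6, 12.1 and 16.6 CPM on HFCF against 6.7, 3.73, 3.41 and 6.73 CPM on LF, with HFCF replicate 1 inside the LF range (log2 fold change 1.34, SE 0.35, edgeR adjusted p 0.0282). Its call was lost without HFCF replicate 2, 3 or 4 or LF replicate 2 or 3. The other 5 named genes were called in all 8 leave-one-out fits. Controls gave 7 of 8 called higher (median 1.17).

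Class II promoters share short elements, of which the Y box binds the factor NF-Y, and the 2 chains above are shown because both hold it. The 250 bases before the RefSeq start site (GRCm38.p6) are given 5′ to 3′ on the gene's strand, with the Y box in capitals. They cover chr17:34287824-34288073, minus strand for H2-Aa, and chr17:34305617-34305866, plus strand for H2-Eb1.
H2-Aa: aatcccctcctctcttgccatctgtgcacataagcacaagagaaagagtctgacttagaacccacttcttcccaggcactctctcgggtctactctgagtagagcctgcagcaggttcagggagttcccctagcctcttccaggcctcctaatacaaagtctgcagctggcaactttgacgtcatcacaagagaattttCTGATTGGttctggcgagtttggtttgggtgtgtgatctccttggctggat
H2-Eb1: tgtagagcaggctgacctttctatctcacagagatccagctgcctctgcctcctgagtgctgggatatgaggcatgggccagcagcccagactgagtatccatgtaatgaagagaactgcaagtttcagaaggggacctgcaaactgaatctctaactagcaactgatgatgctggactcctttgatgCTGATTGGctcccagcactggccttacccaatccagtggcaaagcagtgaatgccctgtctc
The letters searched were CTGATTGG, on either strand, in the 300 bases from 250 before to 50 after the start. The box begins 51 bases before the start in H2-Aa and 62 bases before it in H2-Eb1. Of 6 class II list members with a window, 3 held it, including 2 of the 4 called higher, against 4.1% of all 32851 windows. A member counts if any of its windows holds the box, so the share of genes and that of windows are unlike measures. A match describes letters, not binding.

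Of 16 tested interferon-stimulated genes, 8 were called higher and 0 lower (median 0.65), a count that fell to 2 without HFCF replicate 2 and stayed at 8 without HFCF replicate 1. Ifit1 (chr19:34640871-34650009), which binds viral RNA lacking cap methylation, was at 28.1, 31.2, 17.9 and 16.6 CPM on HFCF against 13.3, 9.13, 13.8 and 11.3 CPM on LF (log2 fold change 0.97, SE 0.22, edgeR adjusted p 0.0161). Rsad2 (chr12:26442746-26456452), the antiviral enzyme viperin, was at 20.2, 31.5, 13.1 and 20.6 CPM on HFCF against 11, 7.07, 7.63 and 11.5 CPM on LF (log2 fold change 1.20, SE 0.25, edgeR adjusted p 0.0122). The 2 diets did not overlap for either gene, though the lowest HFCF livers stood close to the highest LF livers.

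Ifit2 rose by 1.27 (SE 0.26), Oasl2 by 0.90 (SE 0.26), Ifi44 by 0.89 (SE 0.20) and Ifit3 by 0.86 (SE 0.20) on the log2 scale. Rsad2 and Ifit2 were called in all 8 leave-one-out fits. Ifit1 and Ifi44 were lost without HFCF replicate 2 or LF replicate 2, Ifit3 also without LF replicate 3, and Oasl2 was called only without HFCF replicate 1 or LF replicate 4. Over all tested genes, 8.26% were called higher in labelled knockouts, and 18.4% higher and 16.8% lower in controls. In controls, 3 of 16 interferon genes were called higher, near that share, and 1 lower (median 0.08). There Ifit1 was at 22, 15.6, 16.4 and 17.1 CPM on HFCF against 20.9, 16.7, 41.5 and 21.6 CPM on LF (-0.53, adjusted p 0.117) and Rsad2 at 22.5, 12.7, 15.1 and 20 CPM on HFCF against 22.5, 10.3, 32.1 and 8.39 CPM on LF (-0.09, adjusted p 0.864). The control diets overlapped for both genes.

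For 3 of the 16 interferon genes the interaction of diet with labelled knockout had an unadjusted p below 0.05, as did 654 of 15496 genes in all, and none passed adjustment. The apolipoprotein list had 4 of 15 such genes. For Ifit1 the interaction was 1.49 on the log2 scale (adjusted p 0.978). The LF labelled knockouts were the low group for it, below every control library on either diet.

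Interferon response elements (ISRE) bind STAT and IRF factors, and 3 members with such an element are shown. Capitals mark each match on either strand to GAAA, any 2 bases and GAAA, in the 250 bases before the RefSeq start (GRCm38.p6). The stretches are chr19:34640639-34640888, plus strand for Ifit1, chr19:34583279-34583528, plus strand for Ifit3, and chr12:26456453-26456702, minus strand for Rsad2.
Ifit1: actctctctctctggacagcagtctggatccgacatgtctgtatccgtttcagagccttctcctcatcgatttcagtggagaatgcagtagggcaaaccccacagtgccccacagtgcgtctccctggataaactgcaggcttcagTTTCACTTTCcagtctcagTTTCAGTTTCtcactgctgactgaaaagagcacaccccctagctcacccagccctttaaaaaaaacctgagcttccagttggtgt
Ifit3: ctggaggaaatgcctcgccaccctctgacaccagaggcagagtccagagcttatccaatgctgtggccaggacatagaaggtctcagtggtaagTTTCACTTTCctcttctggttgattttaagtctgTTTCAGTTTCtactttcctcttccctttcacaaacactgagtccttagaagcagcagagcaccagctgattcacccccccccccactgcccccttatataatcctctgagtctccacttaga
Rsad2: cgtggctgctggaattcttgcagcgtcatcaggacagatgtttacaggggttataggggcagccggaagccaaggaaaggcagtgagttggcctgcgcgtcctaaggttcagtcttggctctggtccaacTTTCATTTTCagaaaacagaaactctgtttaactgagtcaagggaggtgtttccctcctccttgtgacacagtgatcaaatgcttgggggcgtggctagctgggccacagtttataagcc
Ifit1 held 2 matches, beginning 104 and 85 bases before the start, Ifit3 held 2, at 156 and 122 bases, and Rsad2 held 1, at 120 bases. Over the full 300-base windows, 7 of 11 list members held a match in any window, including 5 of the 8 called higher. Of all windows, counted singly, 3.44% held one.

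Of 9 tested biliary and progenitor epithelial genes, 7 were called higher and 0 lower (median 1.40), but the count fell to 1 without HFCF replicate 2 and was 8 without HFCF replicate 1. Krt19, a keratin of bile ducts, was at 6.04, 5.66, 10.1 and 7.14 CPM on HFCF against 3, 1.16, 0.939 and 4.83 CPM on LF (log2 fold change 1.55, SE 0.43, edgeR adjusted p 0.0353). Cd24a, a surface protein of progenitor cells, was at 10.2, 20.3, 25.9 and 21 CPM on HFCF against 8.43, 3.54, 2.76 and 8.88 CPM on LF (log2 fold change 1.73, SE 0.37, edgeR adjusted p 0.0138). The diets did not overlap in either.

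Only Cd24a held in all 8 leave-one-out fits. Krt19 was called only without HFCF replicate 1 or LF replicate 4. Krt7 at 1.66 (SE 0.45), Muc1 at 1.57 (SE 0.41), Epcam at 1.40 (SE 0.36) and Cldn7 at 1.30 (SE 0.32) were called only without HFCF replicate 1, LF replicate 1 or LF replicate 4. In controls 8 of 9 were called higher (median 1.70). The list sum was 78.59 to 131.9 CPM on HFCF and 41.38 to 73.65 CPM on LF.

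Of 24 tested cell cycle genes, 16 were called higher and 0 lower (median 1.52), with 11 without HFCF replicate 2 and 16 without HFCF replicate 1. Cdc20, the activator of the anaphase-promoting complex, was at 3.48, 5.76, 6.32 and 7.75 CPM on HFCF against 0.404, 0.772, 0.235 and 0.834 CPM on LF (log2 fold change 3.38, SE 0.39, edgeR adjusted p 0.00138); its locus overlaps Elovl1. Mki67, present in all cycling cells, was at 4.97, 17.1, 17.8 and 20.8 CPM on HFCF against 4.56, 3.41, 1.7 and 5.54 CPM on LF (log2 fold change 2.01, SE 0.42, edgeR adjusted p 0.0118). For Mki67, HFCF replicate 1 fell inside the LF range and the other HFCF livers lay above it.

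Ccnb1 and Ccnb2, the mitotic cyclins, rose by 3.61 (SE 0.61) and 2.33 (SE 0.33) on the log2 scale, Aurkb, a mitotic kinase, by 2.80 (SE 0.41), and Top2a by 2.40 (SE 0.50). These 6 named genes were called in all 8 leave-one-out fits, Ccnb1 at 4.33 without LF replicate 1. Which cells were cycling is not shown by bulk RNA.

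The cell cycle homology region (CHR) of mitotic promoters binds the DREAM and MuvB complexes, and 2 members that hold it are shown. Capitals mark TTTGAA on either strand in the 250 bases before the RefSeq start (GRCm38.p6), over chr4:118437344-118437593, minus strand for Cdc20, and chr7:135716380-135716629, minus strand for Mki67.
Cdc20: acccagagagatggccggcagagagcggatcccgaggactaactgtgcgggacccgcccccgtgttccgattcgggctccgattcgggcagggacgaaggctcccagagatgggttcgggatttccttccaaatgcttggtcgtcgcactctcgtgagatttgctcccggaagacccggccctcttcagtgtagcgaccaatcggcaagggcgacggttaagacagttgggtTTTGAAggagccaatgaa
Mki67: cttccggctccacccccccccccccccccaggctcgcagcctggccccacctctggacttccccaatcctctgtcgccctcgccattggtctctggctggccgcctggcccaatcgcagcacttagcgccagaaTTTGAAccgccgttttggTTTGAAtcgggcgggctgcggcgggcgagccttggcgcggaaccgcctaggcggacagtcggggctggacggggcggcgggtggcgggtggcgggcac
The match begins 18 bases before the start in Cdc20, and at 116 and 98 bases before it in Mki67. So short a motif occurs in 17.9% of all windows. Over the full 300-base windows it occurred in 7 of the 19 list members with a window, and all 7 were among the 13 called higher.

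**Figure D3:**
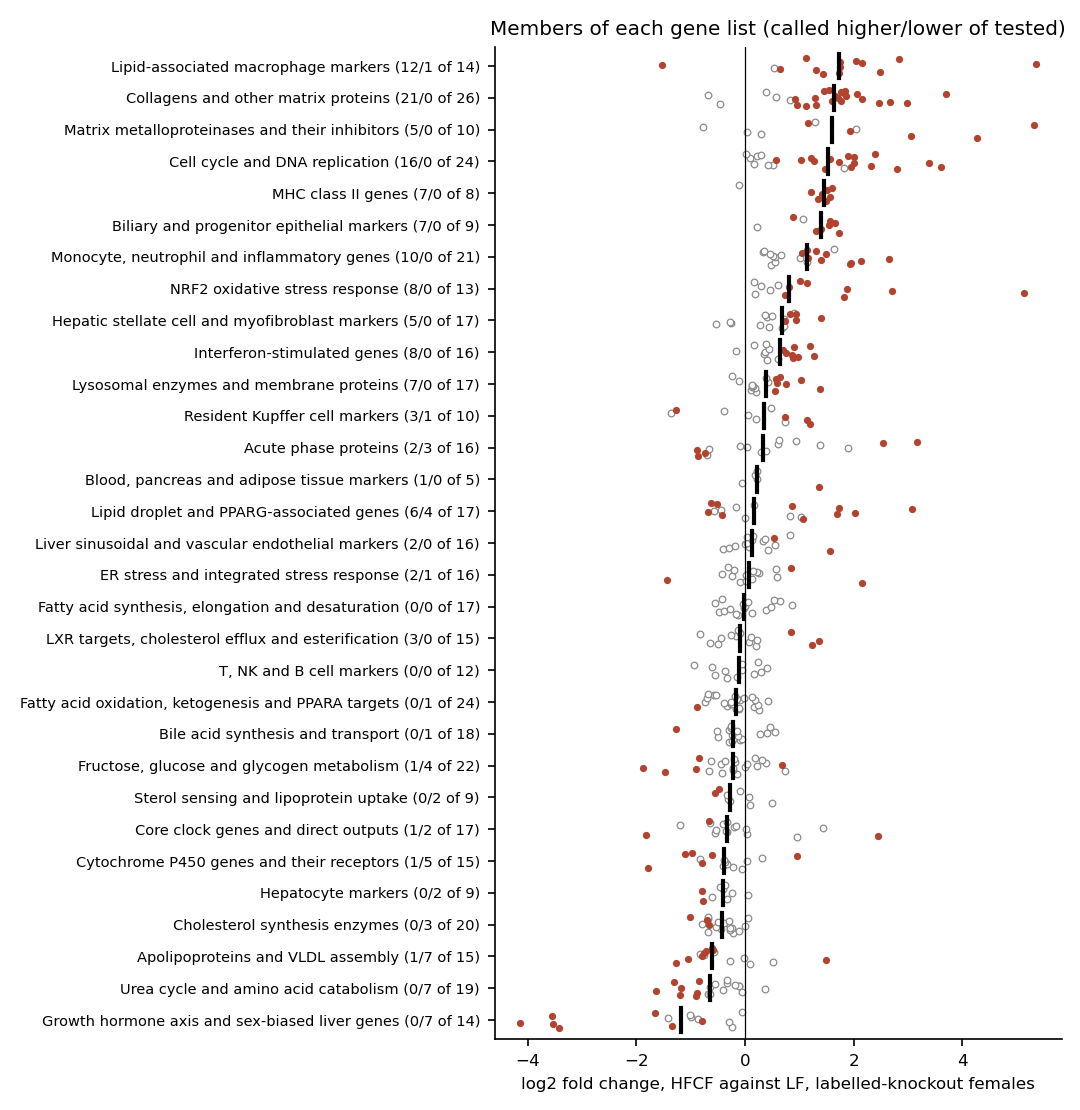
Log2 fold change (HFCF against LF, labelled-knockout females) of each tested member of 31 gene lists, called genes filled red and others open, with the list median as a black bar. Matrix, macrophage, cell cycle and MHC class II lists lie to the right, and the growth hormone, urea cycle and apolipoprotein lists to the left.

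Of 13 tested genes of the NRF2 oxidative stress response, 8 were called higher and 0 lower (median 0.80), with 4 called without HFCF replicate 4 and 8 without HFCF replicate 1. Gsta2, a glutathione transferase, was at 34, 26.4, 19.2 and 37.8 CPM on HFCF against 9.88, 4.31, 0.587 and 3.1 CPM on LF (log2 fold change 2.72, SE 0.52, edgeR adjusted p 0.00801). Gstm3, of another transferase class, was at 119, 267, 221 and 431 CPM on HFCF against 98.2, 80.7, 23.4 and 84.3 CPM on LF (log2 fold change 1.87, SE 0.43, edgeR adjusted p 0.0176). No LF liver overlapped the HFCF livers in either gene, although Gstm3 in HFCF replicate 1 was close to the highest LF value, and its call was lost without HFCF replicate 4. Without LF replicate 1 the value for Gsta2 was 3.46.

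Srxn1, which repairs oxidised peroxiredoxins, rose by 1.14 (SE 0.19) on the log2 scale, Ugdh by 1.02 (SE 0.21) and Cbr3 by 1.82 (SE 0.40), the last lost without HFCF replicate 4. Nqo1, a textbook NRF2 target, was not called, at 0.60 (SE 0.21, adjusted p 0.0807). Of the leave-one-out fits, only the one without LF replicate 1 called it. The glutathione transferases belong to families of similar sequence, so reads may be shared among copies. In controls 6 of 13 were called higher and 0 lower (median 0.59), where 18.4% of all tested genes were called higher. There Gsta2 was not called (0.11, adjusted p 0.922), and Gsta1 rose by 3.92 on the log2 scale (adjusted p 0.00088). An antioxidant element, TGACNNNGC, occurred in the promoter window of 5 of 12 members and 2 of the 6 called higher, against 12.4% of all windows. Promoters of 2 further lists were searched, for the letters TCACGTGA, an E box of lysosomal genes, found in 1 of 11 members of the lipid-associated macrophage list and 0 of the 10 called higher (0.974% of all windows), and TCACCCCAC, a sterol element, found in 1 of 15 cholesterol synthesis genes (0.551%).

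Of 17 tested lysosomal genes, 7 were called higher and 0 lower (median 0.40), between 3 without HFCF replicate 2 and 9 without HFCF replicate 1. The largest were Ctss, a protease of antigen-presenting cells, at 1.39 (SE 0.19), and Laptm5, a leukocyte lysosomal protein, at 1.03 (SE 0.20). Hexa, a ubiquitous hydrolase, rose by 0.75 (SE 0.14), and those 3 were called in all 8 leave-one-out fits. Psap rose by 0.64 (SE 0.14) and was lost without either replicate 2.

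Of 16 tested acute phase genes, 2 were called higher and 3 lower (median 0.34). Over all tested genes, 8.26% were called higher and 3.74% lower. Saa1, serum amyloid A, was at 241, 233, 272 and 297 CPM on HFCF against 52.6, 14.2, 91 and 20.7 CPM on LF (log2 fold change 2.54, SE 0.46, edgeR adjusted p 0.00683). Saa2, its near copy, was at 153, 182, 204 and 232 CPM on HFCF against 32.7, 7.65, 34.9 and 10.3 CPM on LF (log2 fold change 3.17, SE 0.43, edgeR adjusted p 0.00224). The HFCF livers were high and close together, and the LF livers were low and scattered, with no overlap. Without LF replicate 3 the value for Saa1 was 3.17.

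Itih3, a hyaluronan-binding serum protein, fell with a log2 fold change of -0.88 (SE 0.23), Apcs with -0.87 (SE 0.20) and Fgg, a fibrinogen chain, with -0.74 (SE 0.20). Apcs was lost without HFCF replicate 2 or 4, Itih3 also without HFCF replicate 3 or LF replicate 3, and Fgg was called only without either replicate 1. The lower count was 0 without HFCF replicate 2 and 5 without HFCF replicate 1.

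Of 9 tested hepatocyte markers, 2 were called lower and 0 higher (median -0.41), where 3.74% of all tested genes were called lower. Without HFCF replicate 1 there were 6 lower, and without HFCF replicate 2 there were 0. The list sum was 69000 to 116100 CPM on HFCF and 105100 to 122600 CPM on LF. Alb, albumin, was at 83280, 55320, 60010 and 47990 CPM on HFCF against 74550, 77820, 82720 and 75410 CPM on LF (log2 fold change -0.34, SE 0.23, edgeR adjusted p 0.374). HFCF replicate 1 was the highest of all 8 livers and the other 3 HFCF livers were the lowest, and without replicate 1 the log2 fold change was -0.54 (adjusted p 0.0369). The called genes were Fgb at -0.80 (SE 0.20) and Ahsg at -0.78 (SE 0.22), both called without either replicate 1, Fgb also without LF replicate 4, and in no other leave-one-out fit. In controls 8 of 9 were called lower.

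Of 15 tested P450 genes and their receptors, 5 were called lower and 1 higher (median -0.39), with 9 lower without HFCF replicate 1 and 3 lower without HFCF replicate 2. Cyp17a1, which makes steroid precursors, was at 146, 93.2, 106 and 123 CPM on HFCF against 402, 414, 263 and 544 CPM on LF (log2 fold change -1.79, SE 0.21, edgeR adjusted p 0.00147). Nr1i3, the xenobiotic receptor CAR, was at 60.2, 62, 68.8 and 42.8 CPM on HFCF against 105, 131, 153 and 110.1 CPM on LF (log2 fold change -1.10, SE 0.18, edgeR adjusted p 0.00367). All LF livers exceeded all HFCF livers in both genes.

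Nr1i2, the receptor PXR, fell (log2 fold change -0.61 (SE 0.13)), while Cyp3a11, the main drug-oxidising Cyp3a of the mouse, rose, at 2147, 1888, 1799 and 1670 CPM on HFCF against 1109, 1144, 896 and 705 CPM on LF (log2 fold change 0.96, SE 0.18, edgeR adjusted p 0.00822). These 4 were called in all 8 leave-one-out fits. Por, the electron donor of all microsomal P450s, fell with a log2 fold change of -0.97 (SE 0.25) and Cyp2b9, a female-biased P450, with -0.80 (SE 0.21), both called only without HFCF replicate 1, LF replicate 1 or LF replicate 4. Cyp2e1, the alcohol-inducible P450, was not called, at -0.82 (SE 0.31, adjusted p 0.104). Without HFCF replicate 1 it was called, at -1.16 (edgeR adjusted p 0.00951), and in no other leave-one-out fit. Cyp genes of one family are similar, so reads may be shared among copies.

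Of 19 tested urea cycle and amino acid catabolism genes, 7 were called lower and 0 higher (median -0.64), rising to 15 lower without HFCF replicate 1 and falling to 3 without HFCF replicate 2. Asl, argininosuccinate lyase of the urea cycle, was at 553, 303, 322 and 258 CPM on HFCF against 1068, 801, 641 and 758 CPM on LF (log2 fold change -1.19, SE 0.24, edgeR adjusted p 0.00978). Got1, cytosolic aspartate aminotransferase, was at 307, 133, 161 and 114 CPM on HFCF against 604, 583, 402 and 641 CPM on LF (log2 fold change -1.65, SE 0.28, edgeR adjusted p 0.00493). HFCF replicate 1 was the highest HFCF liver in both, yet no HFCF liver reached the LF range.

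Sds, serine dehydratase, fell (log2 fold change -1.31 (SE 0.27)), and it was called with Asl and Got1 in all 8 leave-one-out fits. Arg1, arginase, fell (log2 fold change -0.90 (SE 0.19)) and was lost without HFCF replicate 2. Hal at -1.18 (SE 0.35) and Gls2 at -0.89 (SE 0.27) were called in 1 leave-one-out fit each, without HFCF replicate 1, where Hal was at -1.83. Cps1, the entry enzyme of the urea cycle, overlapped between diets at 2988, 1996, 1944 and 1643 CPM on HFCF against 3238, 4876, 2810 and 2396 CPM on LF (log2 fold change -0.64, SE 0.25, edgeR adjusted p 0.118). Without HFCF replicate 1 it was called, at -0.86 (edgeR adjusted p 0.0176), and in no other leave-one-out fit.

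Growth hormone axis and sex-biased liver genes had the lowest median of the 32 lists, -1.18, and 7 of 14 tested were called lower and 0 higher. Without HFCF replicate 1 the count was 10, and without HFCF replicate 2 it was 5. The members left untested for few reads were Cyp4a12a and Hsd3b5. Cyp4a12a had 26 reads on HFCF and 1 on LF, a ratio of 23.3 (exact 95% counting interval 3.83 to 956). Hsd3b5 had 3 on HFCF and 7 on LF, a ratio of 0.385 (0.0642 to 1.68), which shows no direction. Both intervals cover counting error only. Lepr, Cux2 and A1bg, 3 of the 7, are described above. Cish, which damps STAT5 signalling below the growth hormone receptor, was at 17, 15.6, 18.7 and 15 CPM on HFCF against 17.5, 48.4, 48.8 and 54.5 CPM on LF (log2 fold change -1.35, SE 0.28, edgeR adjusted p 0.0114). LF replicates 2, 3 and 4 were high, and LF replicate 1 stood within the HFCF range.

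Socs2, another STAT5 target, showed the same split at 23, 20.7, 34.8 and 15.1 CPM on HFCF against 16.6, 104, 82.9 and 90.2 CPM on LF (log2 fold change -1.65, SE 0.44, edgeR adjusted p 0.0311), and was called only without HFCF replicate 1, HFCF replicate 3 or LF replicate 1. Igf1, the secreted mediator of growth hormone action, fell with a log2 fold change of -0.80 (SE 0.20), and was lost without HFCF replicate 2 or 4 or LF replicate 2 or 3. The receptor gene Ghr was not called, at -0.30 (SE 0.15, adjusted p 0.216). Without HFCF replicate 1 it was called, at -0.395 (edgeR adjusted p 0.0408), and in no other leave-one-out fit. In controls 10 of 14 were called lower (median -1.28).

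Of 15 tested apolipoprotein and VLDL assembly genes, 7 were called lower and 1 higher (median -0.61). The lower count was 11 without HFCF replicate 1 and 2 without HFCF replicate 2. Apoa5, which aids triglyceride clearance, was at 1142, 687, 761 and 585 CPM on HFCF against 1565, 1655, 1567 and 1752 CPM on LF (log2 fold change -1.05, SE 0.20, edgeR adjusted p 0.00764). Angptl4, an inhibitor of lipoprotein lipase and a PPAR target, was at 67.9, 63, 86.8 and 86.3 CPM on HFCF against 156, 196, 185 and 198 CPM on LF (log2 fold change -1.27, SE 0.15, edgeR adjusted p 0.00152). All LF livers were higher than all HFCF livers in both genes.

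Apoa4, an intestinal-type apolipoprotein made by fatty mouse liver, rose at 419.8, 959, 968 and 1086 CPM on HFCF against 513, 167, 204 and 350.2 CPM on LF (log2 fold change 1.49, SE 0.36, edgeR adjusted p 0.0223), with HFCF replicate 1 inside the LF range. It was called only without HFCF replicate 1, LF replicate 1 or LF replicate 4. Apoc2 fell with a log2 fold change of -0.79 (SE 0.22), Lcat with -0.75 (SE 0.19) and Lipg with -0.72 (SE 0.21), each called in 3 of 8 leave-one-out fits and each lost without HFCF replicate 2 or 4 or LF replicate 3. Apoc2 was also lost without HFCF replicate 3 or LF replicate 4, Lcat without HFCF replicate 3 or LF replicate 2, and Lipg without LF replicate 1 or 2. Apoa5 and Angptl4 were called in all 8.

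Of 22 tested genes of fructose, glucose and glycogen metabolism, 4 were called lower and 1 higher (median -0.22), with 7 lower without HFCF replicate 1. Pck1 (chr2:173153048-173159273), the committing enzyme of gluconeogenesis, was at 754, 998, 742 and 750.2 CPM on HFCF against 2750, 2437, 2397 and 4372 CPM on LF (log2 fold change -1.88, SE 0.22, edgeR adjusted p 0.00145). G6pc, glucose-6-phosphatase, was at 147, 143, 97.9 and 168 CPM on HFCF against 277, 419.5, 432 and 412 CPM on LF (log2 fold change -1.47, SE 0.20, edgeR adjusted p 0.00224). The 4 HFCF livers stood well below the 4 LF livers in both.

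Gys2, liver glycogen synthase, fell (log2 fold change -0.91 (SE 0.14)), and these 3 were called in all 8 leave-one-out fits. Txnip, a glucose-responsive gene, fell (log2 fold change -0.85 (SE 0.20)) and was lost without HFCF replicate 2 or 4. Pgd, of the pentose phosphate pathway, rose by 0.68 (SE 0.16) and was lost without HFCF replicate 4 or LF replicate 2 or 3. Khk, which phosphorylates fructose, was not called, at -0.22 (SE 0.21, adjusted p 0.541). Without HFCF replicate 1 it was called, at -0.49 (edgeR adjusted p 0.0411), and in no other leave-one-out fit.

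Of 20 tested cholesterol synthesis enzymes, 3 were called lower and 0 higher (median -0.42), with 1 lower without HFCF replicate 2 and 7 without LF replicate 3. Tm7sf2, a sterol reductase, was at 113, 75.6, 88.2 and 75.7 CPM on HFCF against 174, 153, 127 and 260 CPM on LF (log2 fold change -1.02, SE 0.21, edgeR adjusted p 0.0111), with no overlap, and held in all 8 leave-one-out fits. Nsdhl at -0.71 (SE 0.20) and Hsd17b7 at -0.67 (SE 0.20) were the others, each called in 2 leave-one-out fits. Those fits left out HFCF replicate 1 or LF replicate 3 for Nsdhl, and HFCF replicate 1 or LF replicate 4 for Hsd17b7. Sqle, squalene epoxidase, was not called, at -0.67 (SE 0.26, adjusted p 0.119), but was called once LF replicate 3, its lowest LF liver, was left out.

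Of 9 tested genes of sterol sensing and lipoprotein uptake, 2 were called lower and 0 higher: Scap, which escorts SREBP, at -0.55 (SE 0.15) and Stard4, a sterol carrier, at -0.47 (SE 0.14). Both were lost without HFCF replicate 2, so the count there was 0, and each held in 2 leave-one-out fits, one of them without HFCF replicate 1. The other was without LF replicate 3 for Scap and without LF replicate 4 for Stard4.

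Of 15 tested LXR targets and efflux genes, 3 were called higher and 0 lower, with 4 lower called once HFCF replicate 1 was left out. Abcg1, a sterol exporter abundant in macrophages, was at 14.3, 29.8, 20.2 and 28.6 CPM on HFCF against 12.4, 7.33, 8.39 and 11.7 CPM on LF (log2 fold change 1.23, SE 0.25, edgeR adjusted p 0.0101), with no overlap. Arl4c rose by 1.37 (SE 0.24), and Soat1, the macrophage enzyme that esterifies cholesterol, by 0.84 (SE 0.22), called only without HFCF replicate 1, LF replicate 1 or LF replicate 4. Abca1 was not called, at 0.21 (SE 0.22, adjusted p 0.595). The rises sat beside the higher macrophage sums given above, and the part of macrophage number in them was not tested.

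Of 18 tested bile acid genes, 1 was called, Slc10a1, the bile acid importer NTCP, at 543, 251, 404 and 217 CPM on HFCF against 839.8, 902, 927 and 720.1 CPM on LF (log2 fold change -1.27, SE 0.26, edgeR adjusted p 0.0104). Every HFCF liver was below every LF liver, and 4 genes of the list were called lower without HFCF replicate 1. With 3.74% of all tested genes called lower, 1 call in the full fit does not mark out this list. Cyp7a1, the rate-limiting enzyme of bile acid synthesis, overlapped at 197, 214, 340.1 and 129 CPM on HFCF against 187, 335, 142 and 56.8 CPM on LF. Of 17 tested genes of fatty acid synthesis, elongation and desaturation, 0 were called by edgeR, although 6 had an unadjusted p below 0.05. Without HFCF replicate 1 there were 2 higher and 2 lower. Scd1, the stearoyl-CoA desaturase, overlapped at 20720, 29240, 28670 and 33540 CPM on HFCF against 23880, 21760, 11990 and 14580 CPM on LF, and Fasn, fatty acid synthase, at 1044, 972, 690.1 and 1758 CPM on HFCF against 1604, 1212, 629 and 1057 CPM on LF. Without HFCF replicate 1 Scd1 was called higher, at 0.73 (edgeR adjusted p 0.0454), and in no other leave-one-out fit.

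Of 24 tested genes of fatty acid oxidation and ketogenesis, 1 was called lower and 0 higher (median -0.17), with 2 higher and 4 lower without HFCF replicate 1. Acot1, a cytosolic thioesterase and PPARA target, was the one, at 54.2, 58.1, 71.6 and 41.5 CPM on HFCF against 69, 108, 141 and 97.6 CPM on LF (log2 fold change -0.89, SE 0.22, edgeR adjusted p 0.0241). The diets overlapped, and the call was lost without HFCF replicate 2 or 4 or LF replicate 2 or 3. Cpt1a, the mitochondrial gate for fatty acids, was not called, at -0.26 (SE 0.20, adjusted p 0.435). With 3.74% of all tested genes called lower, 1 call in the full fit does not mark out this list.

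Lipid droplet and PPARG-associated genes went in both directions: 6 of 17 tested were called higher and 4 lower (median 0.17), with 8 and 5 without HFCF replicate 1 and 4 and 1 without HFCF replicate 2. Lpl (chr8:68880491-68907448), lipoprotein lipase, low in normal adult liver and made by lipid-laden macrophages, was at 81.7, 169, 126 and 165 CPM on HFCF against 24.6, 12.5, 8.63 and 18.8 CPM on LF (log2 fold change 3.08, SE 0.32, edgeR adjusted p 0.000938). Fabp4, a fatty acid binding protein of fat cells, macrophages and capillaries, was at 18.3, 21.5, 22.7 and 22.6 CPM on HFCF against 8.15, 6.05, 2.58 and 9.65 CPM on LF (log2 fold change 1.70, SE 0.29, edgeR adjusted p 0.0054). Cd36, the fatty acid translocase, was at 248, 297, 276 and 271 CPM on HFCF against 194, 130.3, 89.2 and 106 CPM on LF (log2 fold change 1.08, SE 0.21, edgeR adjusted p 0.00907). All 3 were higher in every HFCF liver.

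Fitm1, which buds droplets, rose by 2.03 (SE 0.46), Mogat1, a monoacylglycerol acyltransferase, by 1.74 (SE 0.42) and Plin3 by 0.86 (SE 0.18) on the log2 scale. Fitm1 was lost without HFCF replicate 2 and was at 2.79 without LF replicate 1, Mogat1 without HFCF replicate 2 or 4, and Plin3 without LF replicate 2. The lower calls were Fitm2 at -0.67 (SE 0.18), Pnpla2, the adipose triglyceride lipase, at -0.63 (SE 0.13), Plin5 at -0.52 (SE 0.12) and Dgat1 at -0.42 (SE 0.12). Fitm2 was lost without HFCF replicate 2 or 4 or LF replicate 2 or 3, and Plin5 without HFCF replicate 2 or 3. Dgat1 held in 2 leave-one-out fits, without HFCF replicate 1 or LF replicate 2. Plin2, the main droplet coat of hepatocytes, overlapped at 699, 801, 729 and 719.8 CPM on HFCF against 947, 699.9, 821 and 843 CPM on LF (log2 fold change -0.16, SE 0.15, edgeR adjusted p 0.51). Aqp7, an adipocyte glycerol channel, had too few reads to be tested, with 76 reads on HFCF and 1 on LF, a ratio of 68.2 with an exact 95% counting interval of 11.9 to 2.73e+03 that covers counting error only. Its HFCF levels were 0.355, 0.64, 1.13 and 1.8 CPM.

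The same diet pair in AAV8-TBG-null controls gave 5199 calls of 14755 tested (35.2% called, 2721 higher or 18.4% and 2478 lower or 16.8%). Of the 1754 labelled-knockout calls, 1429 were also control calls, which is 81.5% of the first set and 27.5% of the second, and 1428 had the same direction. The exception was Slc39a5, a zinc transporter, with log2 fold changes of -0.97 (adjusted p 0.035, held in 3 of 8 leave-one-out fits) in labelled knockouts and 0.94 (adjusted p 0.0174) in controls. Its labelled-knockout call was lost without HFCF replicate 2, 3 or 4 or LF replicate 3 or 4, and its locus overlaps Ankrd52. A gene called in one pair only is not thereby shown to differ between them. The biological coefficient of variation was 0.211 here against 0.179 in controls. Without HFCF labelled-knockout replicate 1 it was 0.173. The value with any other library left out, in either pair, was not examined. Of 482 listed genes tested in both, 147 were called in both, 33 in labelled knockouts only and 106 in controls only.

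The interaction of diet and virus, fitted over 16 libraries, passed for 0 of 15496 genes in edgeR (0% called), although 654 had an unadjusted p below 0.05. DESeq2's Wald test called 4, all with a lower diet difference in labelled knockouts: Cidec, Plin4, Slc39a5 and Casc4. They were also the 4 with the lowest edgeR p among negative values. Cidec (chr6:113424634-113435760), a droplet-fusion protein and PPARG target, was at 4.05, 16, 12.1 and 15.6 CPM on HFCF against 6.64, 5.02, 7.34 and 4.59 CPM on LF in labelled knockouts. Cidec changed there by 1.03 on the log2 scale and was not called (edgeR adjusted p 0.0788). Without HFCF replicate 1 it was called, at 1.28 (edgeR adjusted p 0.00161), and in no other leave-one-out fit. In controls it was at 66.9, 67.2, 42.4 and 78.5 CPM on HFCF against 7.18, 5.42, 4.78 and 9.5 CPM on LF. The interaction was -2.21 (edgeR adjusted p 0.53; Wald adjusted p 0.0125), and the HFCF controls lay above the 12 other livers of the fit.

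Plin4, a perilipin of small droplets, was at 3.62, 16.9, 19.6 and 23.3 CPM on HFCF against 16.3, 10.7, 13 and 17.4 CPM on LF in labelled knockouts. In controls Plin4 was at 112, 138, 73.2 and 125 CPM on HFCF against 19, 18.1, 27.4 and 19.9 CPM on LF, and the interaction was -2.25 (edgeR adjusted p 0.729; Wald adjusted p 0.0238). The HFCF controls were high and the other groups low. Its locus overlaps Hdgfl2. For both genes the lowest HFCF labelled knockout was replicate 1, and without it each interaction was -1.94. The lipid droplet list had 5 members with an unadjusted interaction p below 0.05, and its median diet difference was 0.17 here and 0.66 in controls.

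Slc39a5 had an interaction of -1.94 (edgeR adjusted p 0.53; Wald adjusted p 0.0125) and Casc4, a Golgi membrane protein, one of -1.25 (edgeR adjusted p 0.821; Wald adjusted p 0.037). Casc4 was at 11, 11.9, 9.97 and 11.4 CPM in HFCF controls, against 3.7, 4.43, 5.73 and 5.8 CPM in HFCF labelled knockouts and 4.1, 3.6, 4.76 and 3.34 CPM in LF labelled knockouts. LF controls were at 4.05, 2.33, 3.97 and 4.43 CPM, so the HFCF controls were the high group. The positive values with the lowest p, none of which passed in either tool, were Cbx8 at 0.90, Apol9a at 1.47, Ifit1 at 1.49 and Sdr9c7 at 1.52.

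**Figure D4:**
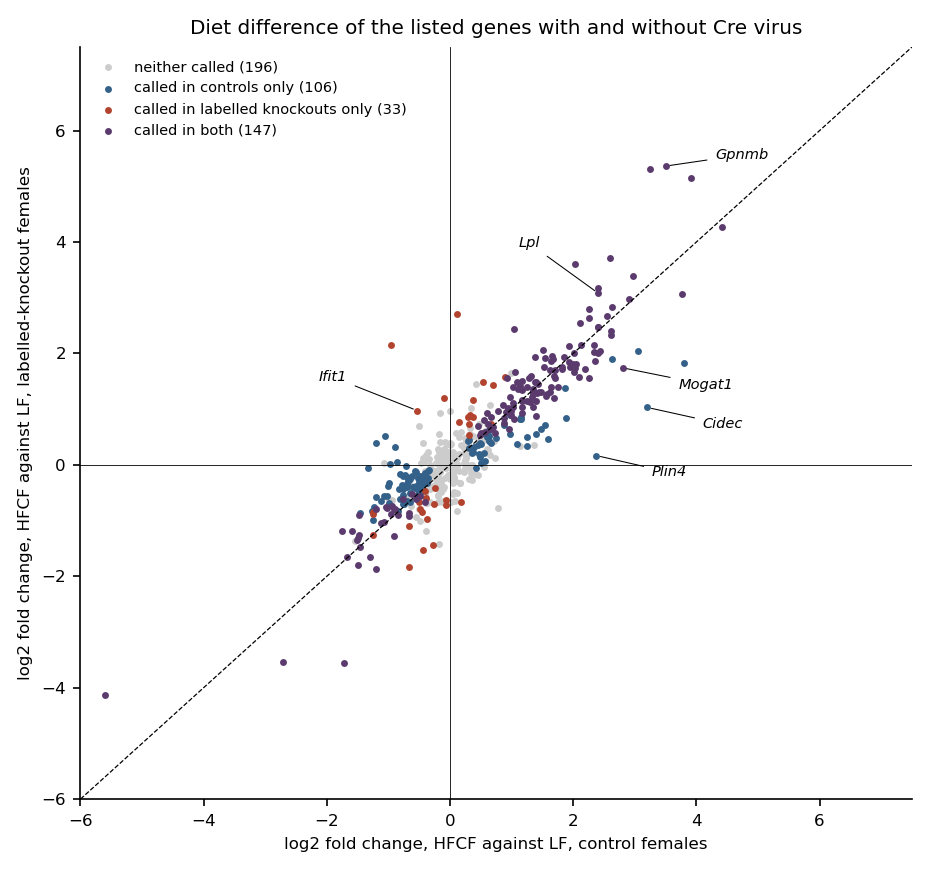
Log2 fold change of HFCF against LF in labelled knockouts (vertical) and in controls (horizontal) for 482 listed genes, coloured by where they were called, with equal values on the dashed line. Plin4 lies near 0 on the vertical axis and at 2.38 on the horizontal one, and Ifit1 is above the line.

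The HF labelled knockouts divide the contrast into its diet steps. These comparisons share libraries with the main one, so their values are given side by side only. HF against LF called 22 of 14214 genes (0.155%), 10 higher (0.0704%) and 12 lower (0.0844%), and with LF replicate 2, LF replicate 4 or HF replicate 1 left out it called 0. Without LF replicate 1 it called 124, without HF replicate 2 it called 5, without HF replicate 3 it called 11, and without HF replicate 4 it called 12. DESeq2's Wald test called 510. HFCF against HF called 2118 of 14650 (14.5%), 1237 higher (8.44%) and 881 lower (6.01%). That count was 4402 without HFCF replicate 1. It was 1006, 1124 and 866 without HFCF replicate 2, 3 or 4, and 1078, 1343 and 1014 without HF replicate 1, 2 or 4.

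Matrix genes had a median log2 fold change of -0.20 for HF against LF and 1.76 for HFCF against HF. Lipid-associated macrophage markers had medians of -0.20 and 1.64, MHC class II genes -0.30 and 1.77, and biliary genes -0.66 and 1.92. None of these 4 lists had a member called for HF against LF. Only 0.155% of all tested genes were called there, so the absence of calls does not mark out these lists. Col1a1 was at 22.4, 34.5, 21.6 and 4.32 CPM on HF and Trem2 at 1.15, 2.65, 3.13 and 1.62 CPM, all below every HFCF liver. HF replicate 4 lay below the LF range for Col1a1.

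Other lists were divided differently. Growth hormone axis genes had medians of -0.76 for HF against LF and -0.33 for HFCF against HF, and inflammatory genes 0.35 and 0.43. Cholesterol synthesis was 0.35 and then -0.83, with 8 of 20 called lower for HFCF against HF, and P450 genes 0.23 and then -0.81. Among the 12 genes called lower on HF against LF were G6pc (-1.83, adjusted p 0.0404), Plin5 (-1.01, adjusted p 0.0181) and Apoa5 (-0.82, adjusted p 0.0383), calls that rest on the libraries named above. Pck1 was at 996, 1357, 1363 and 1817 CPM on HF, below every LF liver and from the top of the HFCF range upwards, and did not pass there (-1.11, adjusted p 0.0846).

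**Figure D5:**
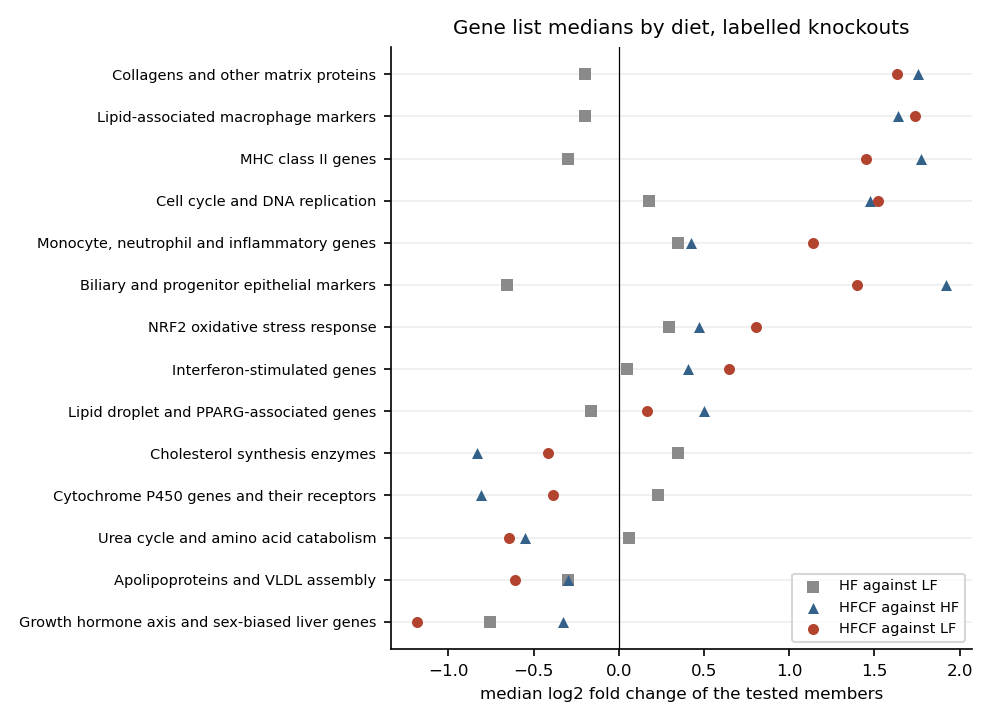
Median log2 fold change of the tested members of 14 gene lists for HF against LF (squares), HFCF against HF (triangles) and HFCF against LF (circles), all in labelled knockouts and sharing libraries. Matrix and macrophage squares sit at -0.20, and the growth hormone square is at -0.76.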

How the data were processed

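Whole-liver RNA was sequenced without strand information, per the labels' protocols. The deposited read counts per gene are the authors' raw counts, made with STAR 2.6.1 and HTSeq 0.6.1 on GRCm38 (mm10), and their comparisons with DESeq2 2, per the submitters' processing notes. The annotation release is not given in the sources used here. The deposited FPKM values are the authors' too, and were used here only for each library's summed FPKM; each equals the count divided by gene length and a factor per library.

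Counts of the 4 HFCF and 4 LF labelled-knockout libraries came from 2 tables joined by gene identifier, a gene absent from a table being set to 0 in its libraries. Of 25551 genes, 23401 were in both, 1373 in the HFCF table only and 777 in the LF table only. Counts repeated between tables were identical in all 747728 values compared. Library totals ran from 15338182 to 21230279 reads over the 24 female libraries. Genes passed edgeR's filterByExpr, libraries were scaled by TMM, and the quasi-likelihood F test (edgeR 4.0.16, R 4.3.3) was adjusted by Benjamini-Hochberg over all genes tested. The same fit served the controls, the HF comparisons and the interaction over 16 libraries. The fit was first run on simulated counts with a single dispersion for all genes and no outlying library, unlike the real data. There 7.2% of its calls were false. Of changes of 0.5, 1 and 2 on the log2 scale, planted in genes with many reads, 17.9%, 94% and 100% were called. Pparg was compared between labelled knockouts and controls by a two-sided exact permutation test (70 arrangements). Alternatives were DESeq2 1.42.0 size factors and its Wald test, other filters, a fold change minimum, all 6 groups in 1 fit, a replicate block and leaving out each library.

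The samples, the 32 gene lists (519 genes, of which 482 were tested) and the tests were chosen with earlier results of these data known. Named genes are the 10 largest called changes in each direction with a mean of at least 1 CPM and no overlap between groups, the most changed called members of each list (up to 6, with up to 3 in each direction), a defining member of each list whatever its result, and the 4 interactions of lowest p in each direction. Slc39a5, and called list members outside that rule (Igf1 and Dgat1), were named after their values were seen. Some genes that the rule names are not reported here. Overlapping genes come from the gene positions deposited with the counts, so only genes present there were considered. Promoter windows of 300 bases come from RefSeq on GRCm38.p6. A gene was counted as holding a motif when any of its windows did, whereas the shares over all windows count each window. The label of LF labelled-knockout replicate 2 gives a mouse number that differs in 1 digit from the series text.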

Additional observations from a re-analysis of the deposited data

Results flagged for a closer look

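Of 74 group values examined, 9 had 1 library far from the other 3 of its group by Dixon's 95% criterion, and chance alone gives about 1 in 20. In HFCF labelled-knockout replicate 1 the summed FPKM was 539800 against 324952 to 352190 in the other HFCF libraries, the number of genes with reads was 19160 against 21022 to 21353, and the second principal component was 68.32 against -14.82 to -9.92. The same library held Cyp3a16 at 43.13 CPM against 0.3593 to 3.917 CPM, Cyp3a41b at 19.68 CPM against 0.7699 to 3.526 CPM, A1bg at 8.811 CPM against 2.017 to 2.889 CPM, and Cbx8 at 12.08 CPM against 8.667 to 9.1 CPM in its group. Of the LF labelled knockouts, replicate 1 had Mmp12 at 5.892 CPM against 0.1286 to 0.8939 CPM, and replicate 2 had Cxcl13 at 10.61 CPM against 1.502 to 2.7 CPM.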

How the results depend on the processing

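For HFCF against LF in labelled knockouts, 1754 genes were called, 922 of which changed by 1 or more on the log2 scale, and 2747 with all 6 female groups in 1 fit. Leaving out 1 library gave 681 to 3587, the lowest without HFCF replicate 2 and the highest without HFCF replicate 1. In controls, calls numbered 1620 with that minimum and 3474 to 5694 with 1 library left out. HF against LF gave 510 by the Wald test, 97 without a filter on low counts, 114 with all groups in 1 fit, and 0 to 124 with 1 library left out. HFCF against HF gave 913 with the fold minimum and 866 to 4402 with 1 library left out. The interaction gave 0 by edgeR with each library left out and 4 by the Wald test. Same-numbered libraries did not deviate together. Their r was -0.096 to 0.095 for HFCF and LF labelled knockouts, -0.137 to 0.066 for HFCF and LF controls, -0.203 to 0.015 for HF and LF, and -0.25 to 0.011 for HFCF and HF. A replicate block gave 1394 calls for HFCF against LF in labelled knockouts, 2036 in controls, 9 for HF against LF and 1180 for HFCF against HF. Pparg on HFCF was 0.975 higher in labelled knockouts by edgeR (log2, adjusted p 0.0422), where the permutation test gave an adjusted p of 0.0571. Uncalled genes that changed sign were Cyp7a1 (-0.019 to 0.719 with 1 library left out, -0.012 without HFCF replicate 3), Fasn (-0.322 to 0.204; 0.054 without HFCF replicate 2 and 0.166 without HFCF replicate 3) and Plin4 (-0.079 to 0.446; -0.017 without LF replicate 2 and -0.006 with the replicate block). No called gene that was named changed sign. Of the settings tried for named genes, 1845 kept the direction and side of the threshold, 296 lost the call, 18 gained one and 8 changed sign, and the cause was not tested. Calls of named genes lost with all 6 groups in 1 fit were those of Col5a2, Cyp3a41b, Fabp5, Folr2, Timd4, Acot1, Nsdhl, Hsd17b7 and Stard4 (adjusted p 0.0608 to 0.171).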

Other observations

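Circadian clock genes, which set daily rhythms of liver metabolism, had 1 call higher and 2 lower of 17 tested between HFCF and LF labelled knockouts (median log2 fold change -0.33). There were 4 lower without HFCF replicate 1, 1 lower without HFCF replicate 2, 0 higher without LF replicate 2 and 2 higher without HFCF replicate 3, and a replicate block gave 3 higher and 4 lower. Over all tested genes, 8.26% were called higher and 3.74% lower. Sampling times are not given in the sources used here. Ciart, a repressor in the clock loop, was at 2.49, 3.98, 3.09 and 1.8 CPM on HFCF against 16.5, 10.8, 6.22 and 7.15 CPM on LF (log2 fold change -1.83, SE 0.33, edgeR adjusted p 0.00663). Bhlhe41, another repressor, was at 4.19, 2.66, 3.62 and 2 CPM on HFCF against 1.21, 0.386, 0.587 and 0.0596 CPM on LF (log2 fold change 2.44, SE 0.53, edgeR adjusted p 0.0145), a call lost without LF replicate 2, and a value of 3.13 without LF replicate 1. The diets did not overlap in either gene. Tef, a clock output factor, was at -0.66 (SE 0.18, adjusted p 0.0364) and held only without HFCF replicate 1 or LF replicate 4. For HFCF against HF, which shares the HFCF libraries, 2 clock genes were called higher and 9 lower.

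Genes of the endoplasmic reticulum stress response were called higher in 2 and lower in 1 of 16 tested. Over all tested genes 8.26% were called higher and 3.74% lower, so these counts do not mark out the list. Atf3, a stress-induced transcription factor, was at 2.15 (SE 0.51, adjusted p 0.0192), lost without HFCF replicate 2 or 4 or LF replicate 3. Trib3 was at 0.85 (SE 0.22, adjusted p 0.0289) and Chac1, which degrades glutathione, at -1.44 (SE 0.38, adjusted p 0.0291), and each held in 3 of 8 leave-one-out fits. The chaperone gene Hspa5 overlapped between diets at 518, 491, 339 and 615 CPM on HFCF against 329, 451, 487 and 379 CPM on LF. Of 5 tested markers of blood and other tissues, 1 was called. This was Alas2, the heme synthesis enzyme of red cell precursors, at 23.6, 26.8, 21.2 and 25 CPM on HFCF against 13.5, 11.1, 6.16 and 6.85 CPM on LF (log2 fold change 1.36, SE 0.23, edgeR adjusted p 0.00474), while the alpha-globin gene Hba-a1 was at -0.05 (SE 0.33, adjusted p 0.944). Alas2 overlaps Apex2.

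Of the listed genes left untested for few reads, Slc7a11, the cystine importer of the NRF2 response, had 30 reads on HFCF and 2 on LF, Nos2, the inducible nitric oxide synthase, 17 and 2, and Cidea, a droplet protein of brown fat and fatty liver, 23 and 3. The Cidea ratio was 6.88 with an exact 95% counting interval of 2.08 to 35.8, which covers counting error only.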
